A study of Mus musculus with 6 samples.

Results

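ZnT proteins, encoded by the Slc30a genes, carry zinc out of the cytosol, either across the plasma membrane or into the compartments of the cell. The family list held 10 genes, Slc30a1 to Slc30a10, and a gene was taken as measured where a probe set of the array was annotated with its symbol alone. By this rule 8 of the 10 were measured, out of 22180 genes on the arrays, each by 1 probe set. Slc30a1, which encodes the zinc exporter of the plasma membrane, and Slc30a10, which encodes an exporter of manganese, lay only on probe sets that also carry the symbol of another gene (1700034H15Rik and Gm2061). Their signal could not be assigned, so no value is given for either.

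Lung RNA came from male C57Bl6 mice at 28 weeks of age. In the Cd-treated group (n = 3) the drinking water contained 10 mg/L CdCl2 for 20 weeks, starting at 8 weeks of age, and the control group (n = 3) drank water without it. All mice ate the same chow, which the study's methods describe as holding a small amount of Cd, and lungs were collected under anesthesia after airway resistance had been measured. Each array held the RNA of 1 biological replicate, but mice were caged in groups and the labels do not say which mice shared a cage. The values are log2 robust multiarray average (RMA) values, in which a difference of 1 is a 2-fold difference. A value depends on how well the probes of that gene bind, so levels of the members were compared between arrays and not with each other. Where a value is called high or set against a quartile of its array, the placement is rough.

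Zinc leaves the cytosol by ZnT proteins and enters it by ZIP proteins, and metallothioneins hold it in between. Cd enters cells through some of the same carriers and binds the same metallothioneins. Zinc sensing runs through MTF-1, a transcription factor that binds a short DNA element, the metal response element, in the promoters of metallothionein genes and of Slc30a1. Among the proteins measured here, ZnT2, ZnT3, ZnT4 and ZnT8 load vesicles and granules, ZnT5, ZnT6 and ZnT7 supply zinc to enzymes in the early secretory pathway, and ZnT9 is the most divergent of the family.

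Promoters are shown for 3 measured members, searched for the metal response element, which in this family is described above for Slc30a1. Slc30a4 and Slc30a2 were chosen as the measured members with the most matches to the core of this element, and Slc30a9 as the member whose mean differed most between the groups. The sequences are from RefSeq (build GRCm38.p6), run 5′ to 3′ in the direction of the gene, and span 250 bases before to 50 bases after the annotated start. Capitals mark the core on either strand, searched as TGCACNC and TGCGCNC.
Slc30a4, chr2:122702614-122702913, minus strand: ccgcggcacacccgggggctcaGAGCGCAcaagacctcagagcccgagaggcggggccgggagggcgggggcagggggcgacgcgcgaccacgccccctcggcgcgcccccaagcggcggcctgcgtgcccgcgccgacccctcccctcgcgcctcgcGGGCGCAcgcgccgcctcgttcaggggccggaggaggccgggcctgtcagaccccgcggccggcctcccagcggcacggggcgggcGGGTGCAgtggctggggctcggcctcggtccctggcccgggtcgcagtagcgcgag
Slc30a2, chr4:134343216-134343515, plus strand: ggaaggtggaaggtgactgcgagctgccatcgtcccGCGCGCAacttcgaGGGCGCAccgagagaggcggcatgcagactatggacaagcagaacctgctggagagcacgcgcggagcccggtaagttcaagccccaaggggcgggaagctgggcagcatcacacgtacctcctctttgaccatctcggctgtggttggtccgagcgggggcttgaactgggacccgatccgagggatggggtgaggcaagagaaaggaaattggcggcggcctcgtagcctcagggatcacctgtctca
Slc30a9, chr5:67306705-67307004, plus strand: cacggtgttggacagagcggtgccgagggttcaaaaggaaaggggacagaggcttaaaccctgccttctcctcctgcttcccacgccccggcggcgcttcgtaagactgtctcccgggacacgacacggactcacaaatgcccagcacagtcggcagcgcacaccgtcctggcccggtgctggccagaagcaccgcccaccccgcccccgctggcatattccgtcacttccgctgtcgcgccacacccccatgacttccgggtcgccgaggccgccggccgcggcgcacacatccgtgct

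In the Slc30a4 promoter the 3 matches began 228, 92 and 6 bases before the start, and in the Slc30a2 promoter 2 matches began 214 and 200 bases before it. All 5 read on the strand opposite to the gene, and none overlapped another. The Slc30a9 window held no match to these letters. Promoter sequence was found for 7 of the 8 measured members, and 4 of them held at least 1 match, the others being Slc30a5 and 1 of 2 annotated starts of Slc30a3. Matches are common by sequence alone, since 25.7% of 32851 promoters of the same length held at least 1, 7.11% at least 2 and 1.97% at least 3. A match describes the letters of the promoter and was not tested as a binding site.

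To determine whether oral Cd was accompanied by altered transcripts of zinc exporters in the lung, the groups were compared for each member. By limma none of the 8 members was higher or lower at an unadjusted p under 0.05, a threshold passed by 1.19% of all genes (0.564% higher, 0.622% lower). None passed by the methods' t-test, which called 2.61% of all genes, and none passed an adjusted p of 0.05. No member had groups that did not overlap, which 7.14% of all genes had. The difference of the group means, given as log2 fold change with the control subtracted, was negative for 5 members and positive for 3, where 52.8% of all genes were negative. Its median over the members was -0.069, against -0.018 over all genes. The 95% confidence interval lay within 1 log2 unit of 0 for 6 of the 8 members, so that a 2-fold difference in either direction fell outside it. For Slc30a4 and Slc30a9 the interval reached past a 2-fold decrease.

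Precision was limited by the few arrays: an exact permutation test of 3 against 3 cannot give a p below 0.1. One array stood apart. On control replicate 3 the mean over 10 skeletal muscle markers was 8.48 where the others had 5.29 to 5.50, and 9 of the 10 were highest there. For 9 measured markers of squamous epithelium it was 5.79, compared with 4.67 to 4.81. Of these 9, 5 were highest there, but Sprr1a and Sbsn were lowest there. Over all genes 34.3% were highest on that array. The mean over 6 endothelial and leukocyte markers was also highest on control replicate 3, at 7.70 against 6.79 to 7.26. There 5 of the 6 were highest and Marco was lowest. The mean over 8 markers of lung epithelium was high on every array, at 9.27 to 9.78, and was again highest on control replicate 3. Among these markers Sftpc, the surfactant protein C gene, read 11.99 to 12.57, while Hopx read only 5.13 to 6.57. Each member is therefore given with and without control replicate 3, and the part of these other tissues in the values was not tested.

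**Figure D1:**
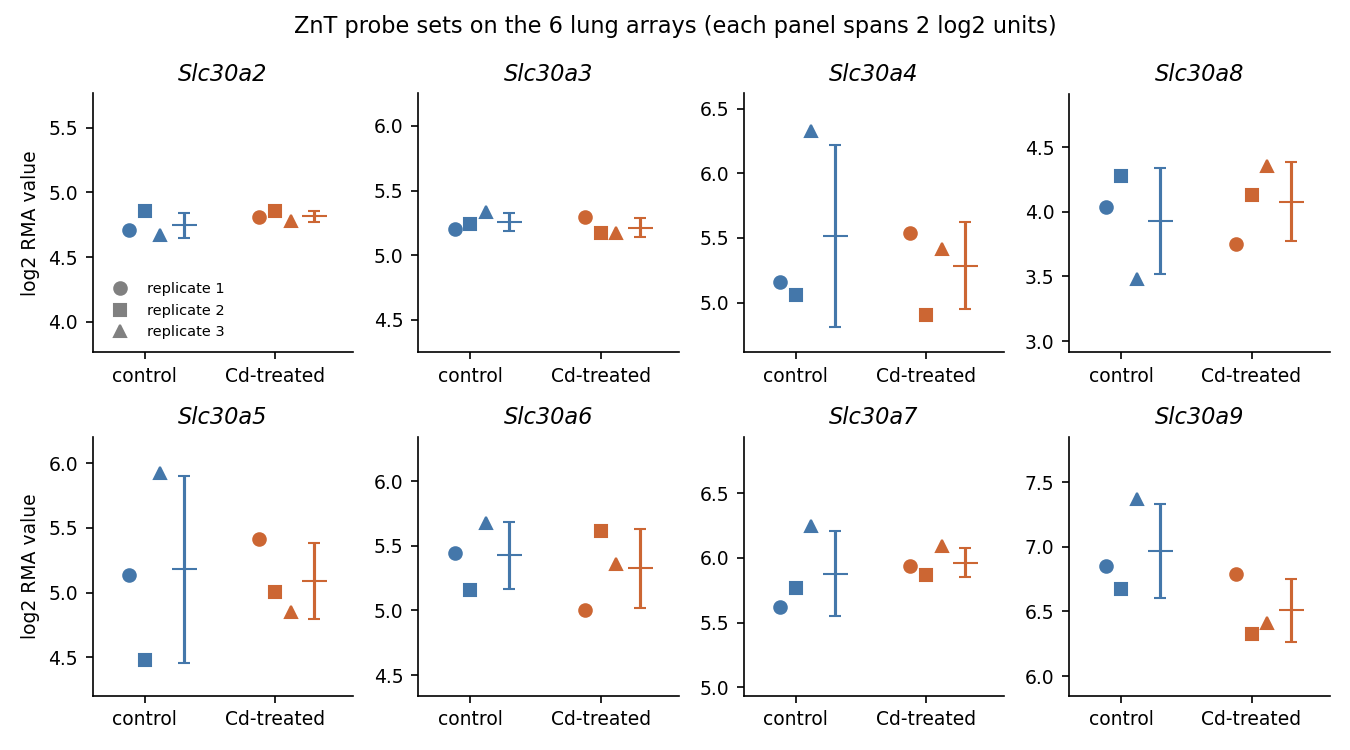
Log2 RMA values (y axis) of the 8 measured ZnT genes on the 3 control arrays (blue) and 3 Cd-treated arrays (orange), with 1 marker shape per replicate number and bars for the mean ± SD. Every panel spans the same 2 log2 units, and the groups overlap in all 8; Slc30a4 and Slc30a5 on control replicate 3 lie far above the other control arrays.

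ZnT9, encoded by Slc30a9 (probe set 17437937), is known as a zinc carrier of mitochondria and was earlier described as a coactivator of nuclear receptors. Slc30a9 read 6.85, 6.67 and 7.37 on the 3 control replicates and 6.79, 6.32 and 6.41 on the 3 Cd-treated replicates, in the order of their numbers as for all members. Only 1 Cd-treated array, replicate 1, reached the range of the controls, where it lay above control replicate 2. The log2 fold change was -0.46 (standard error 0.25, 95% confidence interval -1.05 to 0.14), the farthest from 0 among the members, and limma gave an unadjusted p of 0.113 and an adjusted p of 0.992. An exact two-sided permutation test gave p = 0.2. Without control replicate 3 the difference was -0.25 (interval -0.80 to 0.29), and it was negative in every fit that left out 1 array, from -0.60 to -0.25. When arrays were weighted by their estimated quality the difference was -0.50 with an unadjusted p of 0.00349 (adjusted p = 0.068) from limma. That fit gave control replicate 1 and Cd-treated replicate 2 weights of 5.93 and 6.41, and the other arrays 0.230 to 0.604, and it placed 10.8% of all genes lower at an unadjusted p under 0.05. Further normalization gave smaller differences, -0.27 with cyclic loess and -0.34 with quantiles, with unadjusted p of 0.199 and 0.15 from limma.

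Of 22179 other genes, those whose pattern over the 6 arrays lay closest to that of Slc30a9 were Ppp2ca, a catalytic subunit of protein phosphatase 2A, C4b, a complement component, and Spred2, an inhibitor of Ras signaling. After each gene was centered on its mean, the root mean square difference from Slc30a9 was 0.034 for Ppp2ca, 0.060 for C4b and 0.061 for Spred2. Ppp2ca read 6.82, 6.72 and 7.35 on the control arrays and 6.83, 6.37 and 6.43 on the Cd-treated arrays, with control replicate 3 highest and Cd-treated replicate 2 lowest, as for Slc30a9. With this many genes and 6 arrays some close patterns are found for any gene, so the likeness is a description only.

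ZnT5, ZnT6 and ZnT7 deliver zinc to the early secretory pathway, where alkaline phosphatase and other secreted and membrane-bound enzymes acquire the metal. ZnT5 and ZnT6 act as a heteromer and ZnT7 as a homodimer. Slc30a5 (probe set 17295770) read 5.14, 4.48 and 5.92 on the control arrays and 5.42, 5.01 and 4.85 on the Cd-treated arrays. The controls held both the lowest and the highest value, and all Cd-treated arrays fell between them. Cd-treated and control means differed by -0.090 on the log2 scale (standard error 0.38, interval -0.98 to 0.80). It became 0.28 without control replicate 3, and 0.031 when Cd-treated replicate 3 was left out, so its direction was not stable to the loss of 1 array.

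For Slc30a6 (probe set 17339604) the control arrays read 5.44, 5.16 and 5.68 and the Cd-treated arrays 5.005, 5.61 and 5.36. Cd-treated replicate 1 was the lowest of the 6 for Slc30a6 and the highest of the Cd-treated arrays for Slc30a5. The partners of the heteromer thus did not share an order among the Cd-treated arrays. Among the control arrays they did, with replicate 2 lowest and replicate 3 highest for both. Slc30a6 had a log2 fold change of -0.10 (standard error 0.24, interval -0.67 to 0.46), and it turned to 0.024 without control replicate 3, to 0.058 without Cd-treated replicate 1 and to 0.14 with array weights. Slc30a7 (probe set 17409633) read 5.62, 5.76 and 6.25 on the control arrays and 5.93, 5.86 and 6.09 on the Cd-treated arrays. Here the Cd-treated arrays lay close together, above control replicates 1 and 2 and below control replicate 3. For Slc30a7 the log2 fold change was 0.085 (standard error 0.22, interval -0.44 to 0.61), with 0.27 (interval -0.19 to 0.73) without control replicate 3 and -0.044 without control replicate 1. The unadjusted p from limma was 0.817, 0.684 and 0.716 for Slc30a5, Slc30a6 and Slc30a7.

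ZnT4 moves zinc into endosomes and secretory vesicles, and its loss in the lethal milk mouse leaves milk short of zinc. Slc30a4 (probe set 17390823), whose promoter with 3 matches is shown above, read 5.16, 5.06 and 6.33 on the control arrays and 5.54, 4.90 and 5.41 on the Cd-treated arrays. Control replicate 3 was higher than the mean of the other controls by 1.22, the widest such gap of the 8 members, while the other 5 arrays lay between 4.90 and 5.54. On the log2 scale the group means differed by -0.23 (standard error 0.38, interval -1.12 to 0.66), and limma gave an unadjusted p of 0.561. Leaving out control replicate 3 gave 0.18 (interval -0.43 to 0.78), in the opposite direction.

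ZnT2 fills secretory vesicles and is best known from the mammary gland, where it supplies zinc to milk. Slc30a2 (probe set 17419741) read 4.71, 4.86 and 4.67 on the control arrays and 4.81, 4.86 and 4.78 on the Cd-treated arrays, a range of 0.19 over all 6. Its log2 fold change was 0.069 (standard error 0.17, interval -0.33 to 0.47, unadjusted p of 0.697 from limma), and control replicate 2 lay as high as the highest Cd-treated array. The interval corresponds to 0.793-fold to 1.39-fold. The sign of this small difference turned under further normalization, to -0.0059 with cyclic loess and -0.012 with quantiles. The 7 markers of mammary and exocrine glands had means of 3.81 to 4.26 on the control arrays and 4.10 to 4.48 on the Cd-treated arrays.

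ZnT3 loads synaptic vesicles of glutamatergic neurons with zinc. Slc30a3 (probe set 17446817) read 5.20, 5.24 and 5.33 on the control arrays and 5.30, 5.17 and 5.17 on the Cd-treated arrays. Its range of 0.16 was the narrowest of the members, and the values of both groups were interleaved. A log2 fold change of -0.047 was obtained (standard error 0.17, interval -0.45 to 0.36, unadjusted p of 0.79 from limma), which corresponds to 0.733-fold to 1.28-fold. Without control replicate 3 it was -0.0099. Over 6 neuronal markers the mean was 5.25 to 5.46 on the control arrays and 5.18 to 5.46 on the Cd-treated arrays, so the neuronal list did not separate the groups.

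Insulin granules of pancreatic beta cells carry ZnT8, encoded by Slc30a8. Slc30a8 (probe set 17311476) read 4.04, 4.28 and 3.48 on the control arrays and 3.75, 4.13 and 4.35 on the Cd-treated arrays. Of these 6 values 2 lay under the lower quartile of their array. Control replicate 3, the highest array for Slc30a4 and Slc30a9, was the lowest here. Slc30a8 had a log2 fold change of 0.15 (standard error 0.28, interval -0.50 to 0.80, unadjusted p of 0.608 from limma), and -0.078 without control replicate 3. The mean over 6 islet markers was likewise lowest on control replicate 3, at 4.04 compared with 4.32 to 4.60 elsewhere. The mammary and exocrine list was lowest on the same array too, at 3.81 against 4.10 to 4.48, and so was the lower quartile of all probe sets, at 3.77 against 3.92 to 4.20. The part of each in the Slc30a8 values was not tested. In whole lung, fewer cells of a type and less RNA per cell cannot be told apart for any of these genes.

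**Figure D2:**
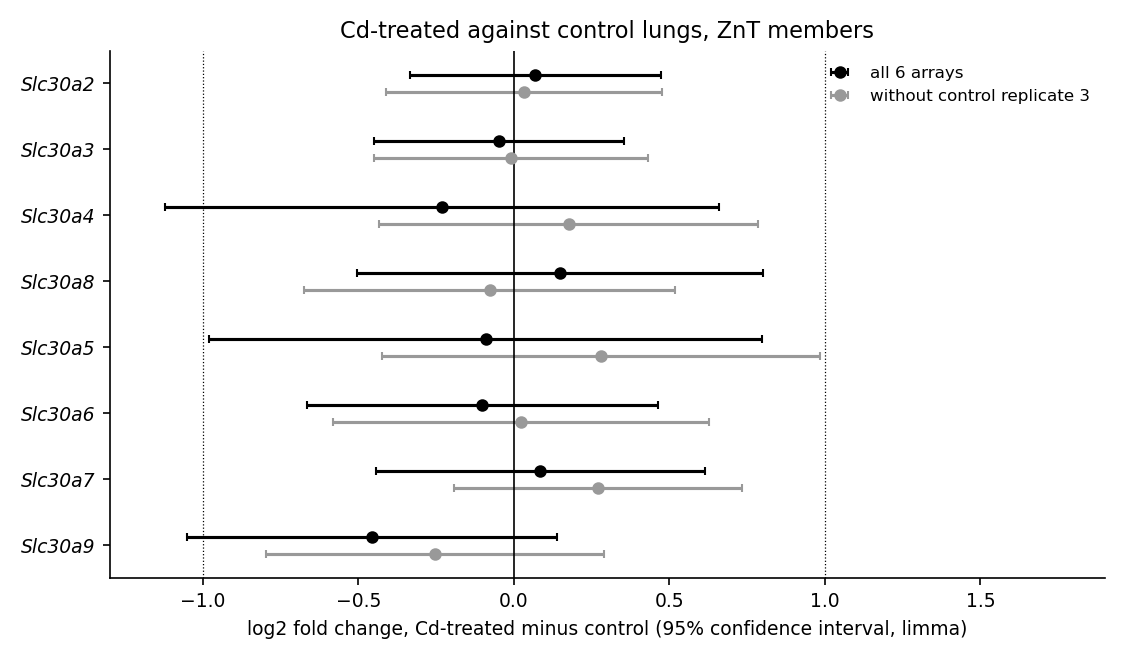
Log2 fold change, Cd-treated minus control (x axis), of each measured ZnT gene with its 95% confidence interval from limma, over all 6 arrays (black) and without control replicate 3 (grey). Every interval includes 0, and dotted lines mark a 2-fold difference; without control replicate 3 all 8 intervals lie inside these lines.

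For each of the 8 members control replicate 3 was at an end of the range, though by unlike amounts. Its deviation from the gene mean was only 0.098 for Slc30a3 and -0.11 for Slc30a2, but 0.93 for Slc30a4. Control replicate 3 had the highest of the 6 values for 6 members (Slc30a3, Slc30a4, Slc30a5, Slc30a6, Slc30a7 and Slc30a9) and the lowest for the other two, Slc30a2 and Slc30a8. Over all genes this array was the highest for 34.3% and the lowest for 27.1%, so it was at an end of the range for 61.4% of genes in general. Averaged over the 8 members, the deviation of control replicate 3 from the gene means was 0.31, and that of the other arrays ran from -0.13 to -0.0057. Over all genes the same average was 0.034 for control replicate 3. Leaving it out changed the sign for 4 members, Slc30a4, Slc30a5, Slc30a6 and Slc30a8. The count of negative signs then was 3 of 8, where 50.6% of all genes were negative, and the median over the members was 0.028, against -0.0025 over all genes. All 8 intervals then lay within 1 log2 unit of 0.

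**Figure D3:**
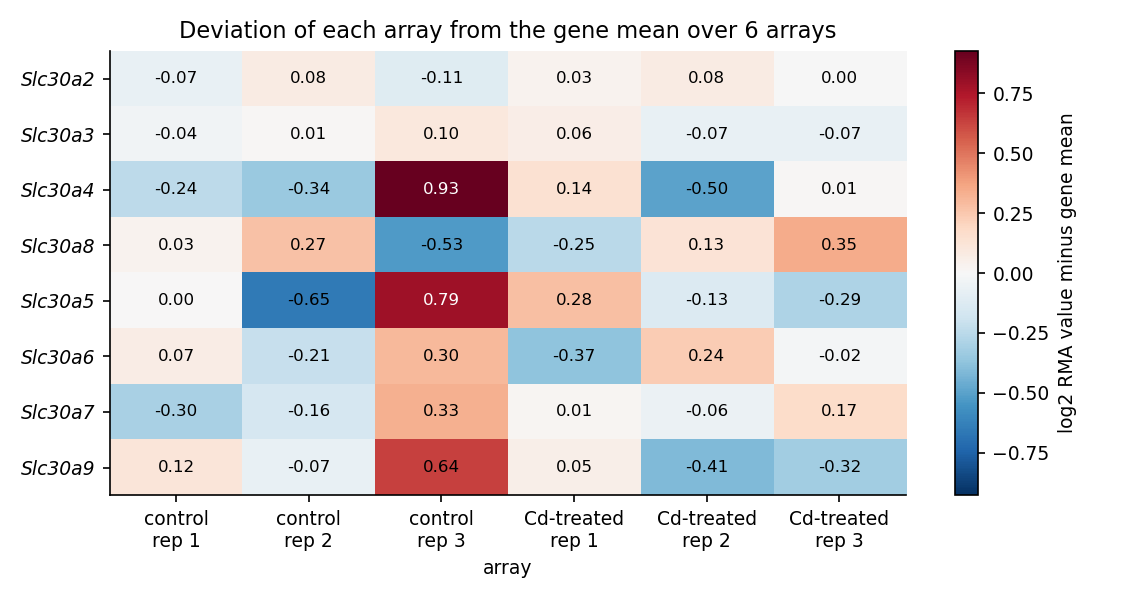
Deviation of each array (columns) from the mean over the 6 arrays for each measured ZnT gene (rows), in log2 RMA units, with red above and blue below the mean. Control replicate 3 is the highest array in 6 rows and the lowest in the rows of Slc30a2 and Slc30a8, with 0.93 for Slc30a4 and 0.79 for Slc30a5.

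The span between the lowest and the highest of the 6 arrays was under 1 for 5 of the 8 members, as it was for 70.2% of all genes. Slc30a2 and Slc30a3 spanned 0.19 and 0.16, and Slc30a6, Slc30a7 and Slc30a8 spanned 0.67, 0.63 and 0.87. Slc30a4, Slc30a5 and Slc30a9 spanned 1.43, 1.44 and 1.05, which became 0.64, 0.94 and 0.53 without control replicate 3.

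The other side of zinc handling was examined with lists of genes, 44 of which were measured. By limma 1 was lower and none was higher at an unadjusted p under 0.05, where 0.622% of all genes were lower and 0.564% higher. The lower one was Mt2, a metallothionein that binds zinc and Cd, at -1.16 on the log2 scale (standard error 0.41), for which limma gave an unadjusted p of 0.0253 and an adjusted p of 0.992. Its unadjusted p from limma was 0.0584 when control replicate 2 was left out and 0.0664 for control replicate 3. Leaving out any other single array gave 0.00927 to 0.0393. Without Cd-treated replicate 3 the log2 fold change of Mt2 was -0.69 (unadjusted p of 0.0309 from limma). Mt1, the other widely expressed metallothionein, had -0.66 (unadjusted p of 0.0868 from limma), and -0.30 without Cd-treated replicate 3. The zinc sensor Mtf1 read 5.28, 5.83 and 5.68 on the control arrays and 5.62, 5.45 and 5.07 on the Cd-treated arrays (log2 fold change -0.22, unadjusted p of 0.397 from limma). Mtf2, a Polycomb-associated protein despite its name, had -0.28 (unadjusted p of 0.162 from limma). Its groups did not overlap, nor did those of Mt2, as for 7.14% of all genes. Mt4, an isoform of squamous epithelium, had -0.90 over all arrays and 0.31 without control replicate 3. All 6 genes of this list were negative, where 52.8% of all genes were, and the median was -0.47, or -0.25 without that array.

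None of the 14 ZIP importers passed, 6 were negative, and the median log2 fold change was 0.031. Those with the smallest p were Slc39a5, a carrier of the basolateral membrane (0.48), Slc39a6 (-0.36), Slc39a10 (-0.28) and Slc39a2 (0.16), with unadjusted p of 0.22 to 0.442 from limma. Without control replicate 3 these log2 fold changes were 0.10 for Slc39a5, -0.084 for Slc39a6, -0.019 for Slc39a10 and 0.044 for Slc39a2. Slc39a8, which carries zinc, manganese and Cd into cells, had a log2 fold change of -0.19 over all arrays and 0.19 without control replicate 3. None of 10 measured carriers of other families passed either (4 negative, median 0.081). Among these, Slc11a2, the divalent metal transporter, had 0.10, and the vesicular zinc transporter gene Tmem163 had -0.067. Trpv6 (0.14) and Trpm7 (-0.17), genes of divalent cation channels, had the smallest p of that list (0.458 and 0.51 from limma), followed by Slc11a1 (0.11) and Slc47a1 (0.11). Trpm7 turned to 0.061 without control replicate 3, and Slc47a1 then had 0.017. Of 6 manganese carriers none passed (3 negative, median -0.064), with Atp2c1, a calcium and manganese pump of the Golgi, at -0.26 and Tmem165 at -0.15. Without control replicate 3 the median of the manganese carriers turned to 0.12, with -0.063 for Atp2c1 and 0.13 for Tmem165.

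Metalloenzymes that mature in the secretory pathway, where ZnT5, ZnT6 and ZnT7 act, were lower in sign for 10 of 11 measured genes, but none passed. Over all genes 52.8% were negative. The median was -0.28, and -0.16 without control replicate 3. That array had the highest value for 7 of the 11, where it was highest for 34.3% of all genes. Without it Nt5e and Car4 turned to 0.12 each. Akp3 (-0.0089) counted as negative, with 5 of its 6 values under the lower quartile of their array. Alpl, the tissue-nonspecific alkaline phosphatase that depends on ZnT5, ZnT6 and ZnT7 for its zinc, differed by -0.14 on the log2 scale (interval -0.59 to 0.32, unadjusted p of 0.499 from limma). Lox and Loxl1, which are copper enzymes of the same route, had -0.86 and -0.48, Mmp2, a zinc protease of the matrix, had -0.64, and Alppl2 had 0.31, and limma gave unadjusted p of 0.062, 0.164, 0.125 and 0.197. Without control replicate 3 the difference was -0.44 for Lox, -0.20 for Loxl1 and -0.24 for Mmp2. The 8 markers of lung epithelium had a median log2 fold change of -0.10, and the 6 of endothelium and leukocytes -0.31, of which -0.049 was left without control replicate 3.

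**Figure D4:**
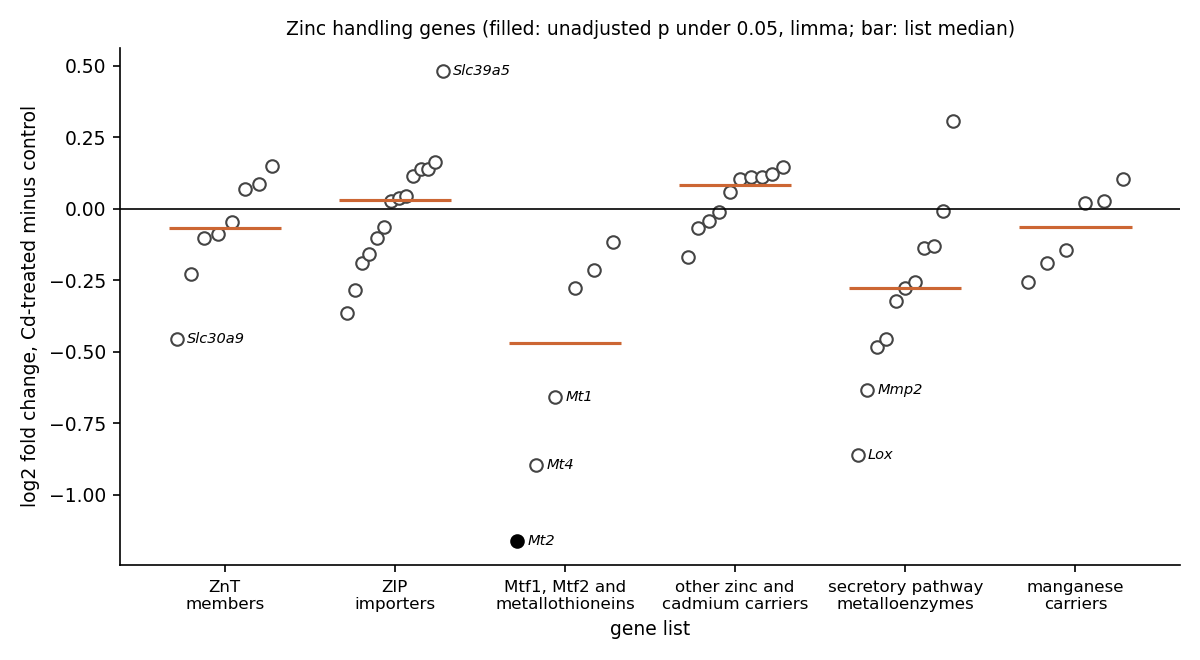
Log2 fold change, Cd-treated minus control (y axis), of each measured gene of the ZnT family and of 5 lists of zinc, Cd and manganese handling genes (x axis); filled points passed an unadjusted p under 0.05 from limma and bars are list medians. Mt2, at -1.16, is the single filled point, and the 8 ZnT genes lie between -0.46 and 0.15.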

How the data were processed

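RNA of 6 lungs, 3 from control and 3 from Cd-treated mice, was hybridized to Mouse Gene ST 2.0 arrays (Affymetrix). Per the labels and the study's methods, the authors turned the scans into the deposited log2 RMA values with the R package oligo (background correction, quantile normalization between arrays, median polish over probes). RMA and limma stand in the submitters' processing notes with no version given. Groups were taken from the sample titles. Symbols came from the annotation of the array, and all 8 measured members matched a reference table by gene number. Per gene, the probe set with 1 symbol and the highest mean over 6 arrays was used. The groups were compared in R 4.3.3 with limma 3.58.1 (group as the term, no filter, 95% confidence intervals, Benjamini-Hochberg over all 41345 probe sets), and single genes also by exact permutation in scipy. The prior added 3.06 degrees of freedom. The steps were tested on simulated data.

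Members and lists were chosen with earlier results of these data known. Named genes were all measured members, the up to 4 genes of each list with the smallest unadjusted p, with Mt1, Mt2 and Mtf1, and the 3 genes closest in pattern to the member with the smallest p; Slc39a8, Slc11a2, Tmem163, Alpl and the markers were named in addition, for their roles. The likeness planned for Slc30a1 was not computed, since that gene had no probe set of its own. Enpp1, Enpp2, Krt5 and Ins1 of the lists were not analysed here, as no probe set carried their symbol alone. The list of 4 prostate and liver markers had means of 4.51 to 4.67 over the arrays. Alternatives were another prior, the methods' t-test, a replicate block, cyclic loess, quantiles again, array weights, a filter on dim probe sets, the mean of a gene's probe sets, and leaving out each array. Scan dates were not used here, so batches were not tested.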

Additional observations from a re-analysis of the deposited data

How the results depend on the processing

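Of 111 refits of single members, 100 kept both direction and side of an unadjusted p of 0.05. Leaving out each array in turn gave log2 fold changes of -0.46 to 0.18 for Slc30a4, -0.44 to 0.28 for Slc30a5, -0.25 to 0.058 for Slc30a6, -0.044 to 0.27 for Slc30a7 and -0.078 to 0.32 for Slc30a8, so these 5 changed sign, while Slc30a2, Slc30a3 and Slc30a9 did not. Slc30a2 turned to -0.0059 with cyclic loess and -0.012 with quantile normalization, and Slc30a6 to 0.14 with array weights. With array weights 1 member, Slc30a9, was lower at an unadjusted p under 0.05, as were 4 genes of the zinc pathway lists (Alpl, Enpp3, Mt1 and Mt2), in a fit that placed 10.8% of all genes lower. The count of lower list genes ran from 0 to 4 when an array was left out. It was 4 without control replicate 2 (Ace, Lox, Loxl1 and Mmp2, where 1.99% of all genes were lower), 2 without Cd-treated replicate 1 (Mt1 and Mt2) and 0 without control replicate 3. The methods' t-test called 0 members, 1 list gene (Mtf2) and 2.61% of all genes. Lox and Mt2 passed when the mean of a gene's probe sets was used. For the remaining refits the share of all genes was not computed, so their counts cannot be set against it.

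Deviations of same-numbered arrays from their group means correlated at -0.49, 0.071 and -0.51. Those values, from only 3 arrays a group, cannot tell whether the replicate numbers pair the arrays. With the replicate block, 0 members and 1 list gene (Mt2) passed, and for that fit too the share of all genes was not computed. The median over the members was -0.069, which the block could not change in this balanced design. Slc30a8 was removed by the filter on dim probe sets. With 3 arrays a group, differences inside the printed intervals cannot be told from 0.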
